A study of Mus musculus with 8 samples.

Results

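The 10 genes described here are markers of bone marrow stroma and of skeletal stem cells, followed in 2 zones of the mouse growth plate. They were listed by name, with earlier results of these data known: *Cxcl12*, *Lepr*, *Pdgfra*, *Pdgfrb*, *Vcam1*, *Nt5e*, *Eng*, *Cd200*, *Foxc1* and *Grem1*. All 10 were found among the 43629 genes of the count table, of which 17492 had at least 1 count. The mice were Axin2CreERT2;R26RTdTomato, in which tamoxifen turns on a red reporter in cells that express *Axin2*, a Wnt target, and in their descendants. All mice received tamoxifen on 3 consecutive days from P23 and were analyzed at P30, and both zones came from the same animals. The resting zone libraries held TdTomato-positive resting chondrocytes. The proliferative zone libraries held flattened chondrocytes without the reporter, cut at least 50 µm from the secondary ossification center, the bone that forms inside the cartilage end. Zone and reporter status therefore cannot be told apart. The labels name tibiae, and the study's methods name femur as well. Each mouse gave 1 library per zone (n = 4 per zone). By the labels 1 and 2 were males, 6 and 13 females. Cells were captured by laser microdissection of 8 µm frozen sections, and their RNA was amplified by in vitro transcription before sequencing.

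Marrow stroma is a network of mesenchymal cells around the sinusoids of bone marrow. Its leptin receptor-expressing cells secrete CXCL12, which holds blood stem cells in their niche through the receptor CXCR4, and they carry the PDGF receptors and the adhesion molecule VCAM1. The transcription factor *Foxc1* maintains these cells. Skeletal stem and progenitor cells of the growth plate have been sorted by surface proteins, among them CD200 (*Cd200*), CD73 (*Nt5e*) and CD105 (*Eng*). In the study's own sort, multipotent progenitors were positive for CD200 and negative for CD105. The BMP antagonist gremlin 1 (*Grem1*) marks a stem cell population of bone and cartilage.

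Totals on genes lay between 192882 and 462044 counts in the resting zone, against 249284 to 631474 in the proliferative zone, so a gene at 10 CPM, which is the count of a gene scaled to a common library total, gave only a few counts. Levels below are CPM scaled by TMM factors, which correct for differences in library composition. The chondrocyte markers were present in every library, with 12 of 12 detected in both zones. Their summed level lay between 7442 and 19440 CPM in the resting zone, against 34580 to 59440 CPM in the proliferative zone. The resting zone libraries also held more RNA of other cell types. Osteoblast and osteocyte markers summed to between 10450 and 37760 CPM there and to between 684.0 and 4192 CPM in the proliferative zone. The 14 leukocyte markers summed to between 2483 and 3442 CPM against 252 to 887 CPM, and the 12 endothelial markers to between 279 and 447 CPM against 83.3 to 115 CPM. Single genes carried much of both sums in the proliferative zone. Without *Csf1r* the other 13 leukocyte markers summed to between 2154 and 3144 CPM in the resting zone, against 1.6 to 532 CPM, and without *Egfl7* the other 11 endothelial markers to between 173 and 313 CPM, against 3.2 to 23.3 CPM. *Pecam1* and *Kdr*, which define endothelium, were at 0 in every proliferative zone library. These sums moved with the zone as several of the markers did, and their part in the results below was not tested. In such bulk material, fewer cells of a type and less RNA per cell cannot be told apart.

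Zones were compared with edgeR's quasi-likelihood test in a model with zone only, which leaves out the pairing by mouse. Values with the mouse as a term are given at the end. A gene was called at an adjusted p below 0.01 (Benjamini-Hochberg) and a log2 fold change beyond 1 in size. The filter on low counts left 3793 genes. The resting zone was called higher for 419 of them (11.0%) and the proliferative zone for 263 (6.93%). Of the 10 markers, 5 passed the filter (*Cxcl12*, *Vcam1*, *Nt5e*, *Eng* and *Foxc1*). Among these 5, *Cxcl12* was the 1 called, with the resting zone higher, and 0 were called the other way. The other 5 (*Lepr*, *Pdgfra*, *Pdgfrb*, *Cd200* and *Grem1*) were read from a second fit over all 17492 genes with a count. That fit called the resting zone higher for 829 genes (4.74%), the proliferative zone for 468 (2.68%), and neither for any of these 5 markers. No marker was so low that every library had at most 3 counts, but *Lepr*, *Pdgfrb* and *Grem1* had fewer than 20 counts in all 8 libraries together and are too low to judge beyond the intervals given below.

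**Figure D1:**
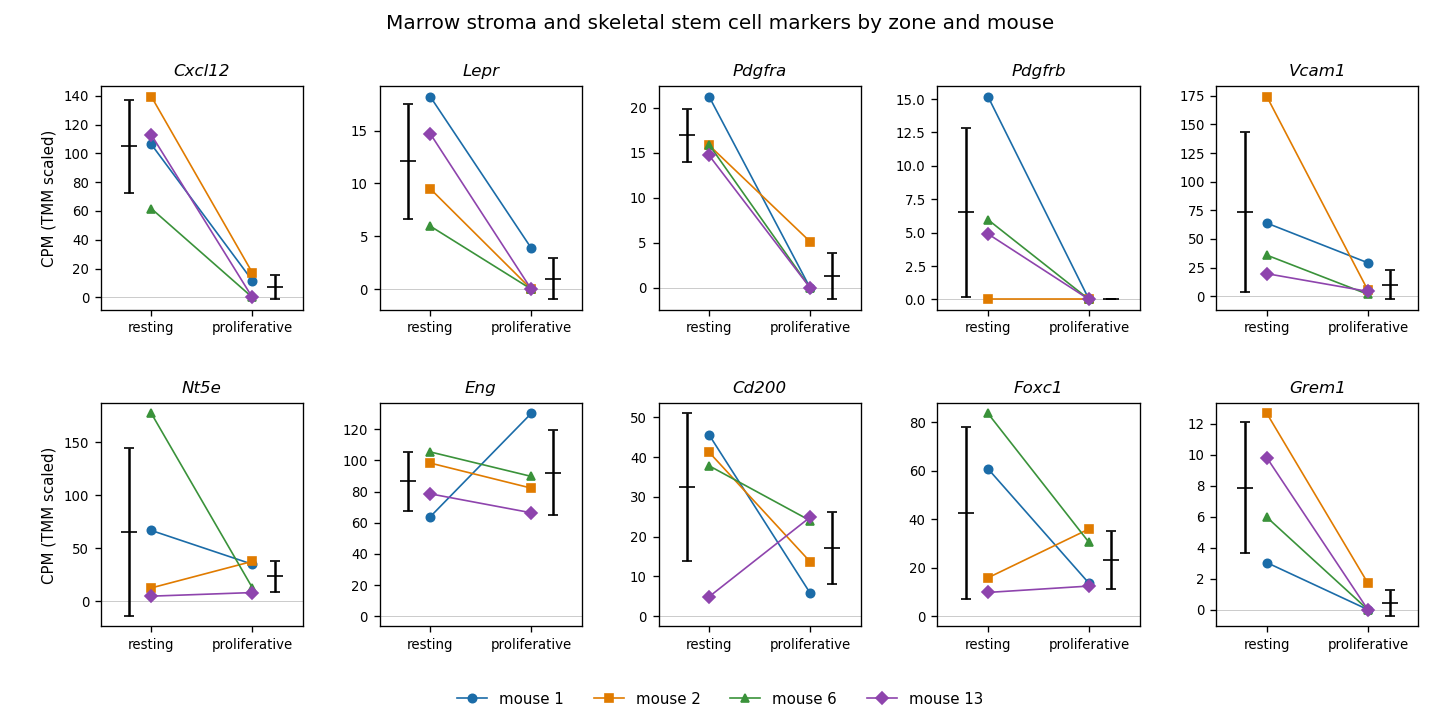
Level of each of the 10 markers in CPM (TMM scaled, linear axes of different range) in the resting and the proliferative zone. Lines join the 2 libraries of a mouse and bars give mean ± SD (n = 4). *Cxcl12*, *Lepr*, *Pdgfra* and *Grem1* lie higher in every resting zone library than in any proliferative zone library, whereas *Eng* overlaps.

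Promoter sequences are shown for *Cxcl12*, the marker that was called, for *Nt5e*, whose resting zone level varied most between mice, and for *Eng*, whose level was close in both zones. They come from RefSeq (GRCm38.p6), run 5′ to 3′ on the gene's strand from 250 bases before to 50 after the start, and have the GC box (GGGCGG or its reverse complement) in capitals. The *Cxcl12* window is chr6:117168285-117168584 on the plus strand, that of *Nt5e* is chr9:88327359-88327658 on the plus strand, and that of *Eng* is chr2:32646345-32646644 on the plus strand.
Cxcl12: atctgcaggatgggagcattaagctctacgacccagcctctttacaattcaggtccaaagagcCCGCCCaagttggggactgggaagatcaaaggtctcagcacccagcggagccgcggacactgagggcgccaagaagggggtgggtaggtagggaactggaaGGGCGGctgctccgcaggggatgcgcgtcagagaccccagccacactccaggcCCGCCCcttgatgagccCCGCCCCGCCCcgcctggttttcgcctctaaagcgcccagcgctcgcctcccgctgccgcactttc
Nt5e: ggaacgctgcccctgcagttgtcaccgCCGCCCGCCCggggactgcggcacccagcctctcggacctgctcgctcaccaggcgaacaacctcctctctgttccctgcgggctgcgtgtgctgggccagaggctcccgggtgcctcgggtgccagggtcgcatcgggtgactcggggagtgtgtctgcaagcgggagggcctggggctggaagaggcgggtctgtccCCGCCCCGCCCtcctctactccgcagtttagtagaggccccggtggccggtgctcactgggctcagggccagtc
Eng: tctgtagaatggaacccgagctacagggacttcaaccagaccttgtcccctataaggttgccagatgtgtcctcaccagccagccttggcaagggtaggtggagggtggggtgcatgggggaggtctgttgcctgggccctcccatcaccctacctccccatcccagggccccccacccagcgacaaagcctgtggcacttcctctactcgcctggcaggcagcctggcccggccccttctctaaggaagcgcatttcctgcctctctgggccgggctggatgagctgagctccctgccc
The *Cxcl12* window held 5 GC boxes, some of them overlapping, with 64.67% G and C and 20 CpG. The *Nt5e* window held 4 GC boxes with 71.0% G and C and 23 CpG, and the *Eng* window held 0 with 63.33% and 6 CpG. Over all 32851 promoter windows of this length, 35.66% held a GC box, and the medians were 52.67% G and C and 7 CpG. The table had 9 windows for 8 of the markers, 2 of them for *Lepr*. The GC content of these windows ran from 45.0% in *Cd200* to 71.0% in *Nt5e*, and the *Foxc1* window held the most CpG, 32. Other motifs were searched on both strands. The TATA box (TATAAA, in 13.62% of all windows), the hypoxia response core (ACGTG, 19.62%) and a forkhead core (TAAACA, 13.44%) were not found in any of the 9. The CCAAT box (CCAAT, 37.41% of all windows) occurred 2 times in *Foxc1* and 1 time each in *Grem1* and in 1 *Lepr* window. These matches describe the letters of the windows only.

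*Cxcl12* (ENSMUSG00000061353, chromosome 6, 117168535 to 117181367, plus strand, GRCm38), which encodes the chemokine that retains blood stem cells in marrow, was higher in the resting zone. The resting zone libraries of mice 1, 2, 6 and 13 had 35, 44, 31 and 23 counts and the proliferative zone libraries 6, 10, 0 and 0. Every resting zone library was above every proliferative zone library, and the counts of the proliferative zone came from mice 1 and 2 alone. In level, the resting zone had 105 ± 32.3 CPM and the proliferative zone 7.19 ± 8.6 CPM (SD, n = 4 each). The log2 fold change of the resting over the proliferative zone was 3.67 (SE 0.71, 95% interval 2.14 to 5.20, adjusted p = 0.00196 in edgeR), with the resting zone higher in 4 of 4 mice. An exact permutation test of the CPM values over the libraries (two-sided, unpaired) gave p = 0.0286, the smallest p that 4 against 4 libraries allow. With the zones exchanged only within mice, as the pairing asks, the exact p was 0.125, the smallest that 4 pairs allow, so that test cannot pass a threshold of 0.05. Leaving out each library in turn kept the call, with log2 fold changes between 3.11 and 4.41.

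In the proliferative zone, *Cxcl12* was detected in the libraries that also held hemoglobin and other erythroid counts. These markers summed to 1716 CPM in mouse 1 and 339 CPM in mouse 2, the males, and to 0 in mice 6 and 13, the females. Sex therefore cannot be told apart from this split. In the resting zone the same markers summed to 12030, 11020, 4086 and 1811 CPM in mice 1, 2, 6 and 13 and did not follow *Cxcl12*, which was second highest in mouse 13 (113 CPM) and lowest in mouse 6 (61.7 CPM). The osteoblast and osteocyte sum was also lowest in mouse 6 among the resting zone libraries (10450 CPM), through *Col1a1* and *Col1a2*, whereas *Ibsp* (967 CPM) and *Spp1* (668 CPM) were highest there. In the proliferative zone that sum was 4192, 1056, 684.0 and 1257 CPM in mice 1, 2, 6 and 13, where *Cxcl12* was 11.7, 17.1, 0 and 0 CPM. All 14 leukocyte markers were detected in the resting zone and 12 of them in the proliferative zone. The part of these sums in the *Cxcl12* difference was not tested.

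**Figure D2:**
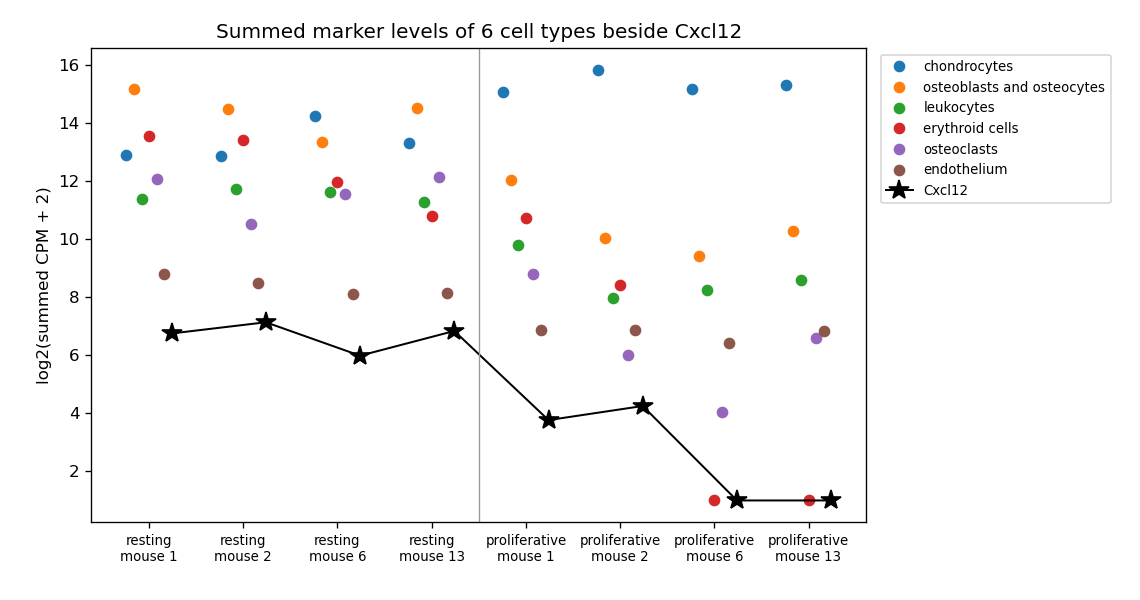
Summed levels of the marker lists of 6 cell types in each library, as log2(summed CPM + 2), beside *Cxcl12* on the same scale (black stars, joined by a line to guide the eye). Erythroid markers, as *Cxcl12*, are at 0 in the 2 proliferative zone libraries on the right, those of mice 6 and 13, and points of a library are spread sideways so that they can be told apart.

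The receptor of CXCL12 was called in the same direction. *Cxcr4*, which marrow leukocytes carry on their surface, had 23, 16, 31 and 17 counts in the resting zone, against 6, 0, 0 and 0 in the proliferative zone. All 4 resting zone libraries were higher. The log2 fold change was 4.29 (SE 0.80, adjusted p = 0.00161 in edgeR). The scavenger receptor gene *Ackr3* had 1 count in each zone, and *Dpp4*, whose product cleaves CXCL12, had 2 counts, both in the resting zone. The leukocyte gene *Ptprc* had 24, 36, 37 and 14 counts in the resting zone and 7, 0, 0 and 0 in the other. Within the resting zone the order was not shared: *Cxcr4* was lowest in mouse 2 (50.7 CPM), where *Ptprc* was highest (114 CPM). The part of leukocytes in the *Cxcr4* counts was not tested.

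The receptors of the stroma were low, and none was called. *Lepr* (ENSMUSG00000057722, chromosome 4, 101717404 to 101815352, plus strand), the leptin receptor, had 6, 3, 3 and 3 counts in the resting zone, against 2, 0, 0 and 0 in the proliferative zone. The zones did not overlap, and the only proliferative zone counts were those of mouse 1. The levels were 12.1 ± 5.44 CPM and 0.971 ± 1.94 CPM (SD, n = 4). Taken over each zone, the level of *Lepr* in the resting zone was 10.9-fold that in the proliferative zone, with an exact counting interval of 2.54 to 98.3 that covers counting error only. The second fit gave a log2 fold change of 2.95 (SE 1.25, 95% interval 0.49 to 5.41, adjusted p = 0.118 in edgeR), higher in 4 of 4 mice. Without the proliferative zone library of mouse 1, which held both counts of that zone, it was 5.17 (adjusted p = 0.0339), a value that depends on the prior count because the other libraries of that zone are at 0. Its ligand gene *Lep* had 0 counts in all 8 libraries, where 3 counts over a zone correspond to 2.22 CPM in the resting and 1.53 CPM in the proliferative zone. Of the 7 genes of the leptin receptor pathway, 6 had a count, 1 passed the filter and 0 were called in either fit. Over all genes, 11.0% were called resting-high and 6.93% proliferative-high in the first fit, and 4.74% and 2.68% in the second. The gene that passed was *Stat3*, which carries the signal to the nucleus, with 41 to 110 counts in the resting zone, 40 to 106 in the proliferative zone and a log2 fold change of 0.61 (adjusted p = 0.0884 in edgeR).

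*Pdgfra* (ENSMUSG00000029231, chromosome 5, 75152292 to 75198215, plus strand) encodes the PDGF receptor of mesenchymal progenitors. Its counts were 7, 5, 8 and 3 in the resting zone, against 0, 3, 0 and 0 in the proliferative zone. The resting zone libraries were close to each other in level, at 16.9 ± 2.94 CPM against 1.28 ± 2.57 CPM, and the zones did not overlap in CPM. The ratio over the zones was 11.2-fold (exact counting interval 3.37 to 58). The second fit gave a log2 fold change of 3.07 (SE 1.09, 95% interval 0.94 to 5.20, adjusted p = 0.0433 in edgeR), which missed the threshold, with the resting zone higher in 4 of 4 mice. Without the proliferative zone library of mouse 2, which held all 3 counts of that zone, *Pdgfra* was called (adjusted p = 0.0095 in edgeR). The log2 fold change was then 5.63, which depends on the prior count because the remaining libraries of that zone are at 0. Its exons share 456 bases with *Gm42802* and 166 bases with *Gm42803* on the opposite strand, and the sources used here do not state whether strand was used in counting.

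*Pdgfrb* (ENSMUSG00000024620, chromosome 18), the PDGF receptor of pericytes and stroma, had 5, 0, 3 and 1 counts in the resting zone and 0 in all 4 proliferative zone libraries. The resting zone library of mouse 2 was also at 0, so the zones overlapped. With the proliferative zone set at a limit of 3 counts, the fold bound of *Pdgfrb* was 4.36. This bound leaves out the counting error of the 9 resting zone counts of *Pdgfrb*. The library of mouse 1 held 5 of its 9 counts, and without it the bound was 2.56-fold and the mean was 3.63 ± 3.18 CPM, against 6.52 ± 6.34 CPM with it. The second fit gave a log2 fold change of 4.37 (SE 1.66, adjusted p = 0.0679 in edgeR), a value that depends on the prior count because 1 zone is at 0. The pericyte gene *Rgs5* had 70, 17, 51 and 17 counts in the resting zone, against 1, 0, 0 and 1 in the proliferative zone. The 10 pericyte and smooth muscle markers together summed to between 442 and 844 CPM in the resting zone, against 348 to 505 CPM in the proliferative zone, so their ranges overlapped. *Tagln* and *Cspg4* made up nearly all of the proliferative zone sum, and the other 8 summed to between 114 and 337 CPM in the resting zone, against at most 5.14 CPM. *Rgs5* was called in the first fit and *Notch3* and *Abcc9* in the second, all with the resting zone higher. The part of these markers in the *Pdgfrb* values was not tested.

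The genes of the PDGF ligands were low as well. *Pdgfa*, the main ligand gene of the alpha receptor, had 31, 6, 30 and 10 counts in the resting zone, against 9, 6, 7 and 3 in the proliferative zone. Its levels did not overlap, but the log2 fold change of 1.85 was not called (SE 0.58, adjusted p = 0.0182 in the second edgeR fit). The exons of *Pdgfa* share 813 bases with *6330403L08Rik* on the opposite strand. *Pdgfb*, which endothelium uses to recruit pericytes, had 6, 3, 5 and 0 counts in the resting zone, against 0 in the proliferative zone (adjusted p = 0.0204 in the second fit). *Pdgfd*, a ligand of the beta receptor, was the 1 of 4 ligand genes that was called, with 8, 1, 1 and 6 counts against 0 in all 4 (log2 fold change 5.40, adjusted p = 0.00594 in the second edgeR fit, a value that depends on the prior count). That fit called the resting zone higher for 4.74% of all genes with a count.

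*Vcam1* (ENSMUSG00000027962, chromosome 3, 116109949 to 116129688, minus strand), the adhesion molecule by which stroma and endothelium bind leukocytes, was not called. Its counts were 21, 55, 18 and 4 in the resting zone, against 15, 3, 1 and 1 in the proliferative zone. The zones overlapped, because the resting zone library of mouse 13, at 19.6 CPM, lay below the proliferative zone library of mouse 1, at 29.1 CPM. The means were 73.4 ± 69.7 CPM and 10.0 ± 12.8 CPM, with the resting zone higher in 4 of 4 mice. The log2 fold change was 2.81 (SE 0.82, 95% interval 1.03 to 4.59, adjusted p = 0.0203 in edgeR), and the exact permutation p was 0.0571 (two-sided, unpaired, so it leaves out the pairing by mouse). The value depended on single libraries. Without the resting zone library of mouse 2, which held 55 of the 98 counts of that zone, the log2 fold change was 1.93 (adjusted p = 0.0898) and the resting zone mean 39.7 ± 22.3 CPM. Without the proliferative zone library of mouse 1 it was 4.21 and was called (adjusted p = 0.00317), and without that of mouse 2, 6 or 13 the adjusted p lay between 0.0634 and 0.0743. With mouse 6's resting zone library left out, *Vcam1* no longer passed the filter and was read from the second fit, which called it (adjusted p = 1.75e-05). The second fit over all genes with a count and all libraries also called it (adjusted p = 0.000178). *Vcam1* shares 61 exon bases with *Gm43109* on the opposite strand.

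Of the 3 VCAM1 partners that passed the filter, *Itga4* and *Msn* were called with the resting zone higher, where 11.0% of all tested genes were. *Itga4*, the alpha 4 integrin that binds VCAM1 on leukocytes, had 25, 41, 17 and 6 counts in the resting zone, against 9, 0, 2 and 3 in the proliferative zone (log2 fold change 3.11, SE 0.78, adjusted p = 0.00936 in edgeR). The highest library of *Itga4* was the resting zone library of mouse 2, as for *Vcam1*. *Msn*, encoding the membrane linker moesin, was called with a log2 fold change of 1.58 (adjusted p = 0.00735) but not in the second fit (adjusted p = 0.0133). *Itgb1*, the beta 1 integrin that pairs with alpha 4, had 67 to 108 counts in the resting zone, against 37 to 192 in the proliferative zone, and its log2 fold change of 0.37 was not called (adjusted p = 0.378). Leukocyte markers, which summed to 3442 CPM in the resting zone library of mouse 2 (the highest of all), moved with the zone as *Itga4* did, and their part was not tested.

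*Nt5e* (ENSMUSG00000032420, chromosome 9, 88327197 to 88372092, plus strand) encodes CD73, the ectoenzyme that makes extracellular adenosine. Its counts were 22, 4, 89 and 1 in the resting zone, against 18, 22, 8 and 2 in the proliferative zone. The resting zone spread from 4.91 CPM in mouse 13 to 177 CPM in mouse 6, while the proliferative zone lay between 8.3 and 37.7 CPM. The resting zone was higher in 2 of 4 mice, 1 and 6. The means were 65.4 ± 79.4 CPM and 23.4 ± 15 CPM, and the log2 fold change was 1.49 (SE 0.80, 95% interval -0.24 to 3.22, adjusted p = 0.186 in edgeR). Without the resting zone library of mouse 6 it was 0.26 (adjusted p = 0.827), so the difference in means rested on that library.

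Of the 13 adenosine pathway genes, 11 had a count, 5 passed the filter and 1 was called higher in the resting zone, where 11.0% of all tested genes were. *Adora1*, an inhibitory adenosine receptor, had 18, 18, 110 and 22 counts in the resting zone, against 0, 0, 0 and 1 in the proliferative zone (log2 fold change 7.07, SE 0.89, adjusted p = 0.000209 in edgeR). Its highest library was again the resting zone library of mouse 6, as for *Nt5e*. *Entpd1*, encoding CD39, which makes the AMP that CD73 cleaves, had 3, 3, 7 and 1 counts in the resting zone, against 0 in the proliferative zone (adjusted p = 0.0209 in the second fit, not called). *Adk*, encoding the kinase that clears adenosine, had 4, 6, 28 and 3 counts in the resting zone, against 23, 57, 74 and 15 in the proliferative zone, and its log2 fold change of -1.57 was not called (adjusted p = 0.035) but was in the second fit (-1.78, adjusted p = 0.0036).

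*Eng* (ENSMUSG00000026814, chromosome 2, 32646595 to 32682669, plus strand) encodes CD105, a TGF-beta co-receptor of endothelium and stroma that sorting schemes use to set apart skeletal progenitors. It had 21, 31, 53 and 16 counts in the resting zone, against 67, 48, 56 and 16 in the proliferative zone. The levels overlapped, with 86.5 ± 18.9 CPM against 92.1 ± 27.1 CPM. The log2 fold change was -0.09 (SE 0.32, 95% interval -0.79 to 0.61, adjusted p = 0.860 in edgeR), and differences within that interval in either direction cannot be told from 0 with these libraries. The resting zone was higher in 3 of 4 mice, with mouse 1 the other way. Without either library of mouse 1 the sign turned, to 0.017 without the resting and 0.037 without the proliferative library. Of the endothelial markers, *Pecam1* had 15, 19, 14 and 3 counts in the resting zone, against 0 in all 4 proliferative zone libraries, whereas *Egfl7* had 44, 50, 53 and 17 against 47, 64, 50 and 24. *Eng* shares 61 exon bases with *Fpgs* on the opposite strand, and *Fpgs* had 65, 42, 45 and 11 counts in the resting zone, against 9, 2, 1 and 2 in the proliferative zone.

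Of the 13 genes of the TGF-beta receptor and Smad list, 12 had a count, 7 passed the filter and 0 were called. Of all tested genes, 11.0% were called with the resting zone and 6.93% with the proliferative zone higher. The second fit, over all genes with a count, called 2 of the list, *Tgfbr1* with the resting zone higher (2.12, adjusted p = 0.00337 in edgeR) and *Tgfb2* the other way (-1.54, adjusted p = 0.00712). The shares over all genes in that fit were 4.74% and 2.68%. In the first fit the nearest were the receptor genes. *Tgfbr1* had a log2 fold change of 2.37 (adjusted p = 0.0113 in edgeR), with 42, 11, 25 and 9 counts against 9, 2, 13 and 1, and *Tgfbr2* one of 1.33 (adjusted p = 0.0145), with 25, 36, 39 and 23 against 17, 31, 24 and 5. The ligand gene *Tgfb2* lay the other way, with 6, 10, 23 and 15 counts in the resting zone, against 42, 61, 83 and 22 in the proliferative zone (log2 fold change -1.32, adjusted p = 0.0273). *Acvrl1*, which encodes the endothelial receptor that works with endoglin, had 10 counts, all in the resting zone.

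*Cd200* (ENSMUSG00000022661, chromosome 16, 45382135 to 45409053, minus strand) encodes a surface glycoprotein that skeletal stem cell sorts select for. It had 15, 13, 19 and 1 counts in the resting zone, against 3, 8, 15 and 6 in the proliferative zone. Mouse 13 went the other way from the remaining mice, and the zones overlapped. The levels were 32.4 ± 18.6 CPM and 17.1 ± 9.08 CPM, and the second fit gave a log2 fold change of 0.79 (SE 0.63, 95% interval -0.44 to 2.02, adjusted p = 0.469 in edgeR), with the resting zone higher in 3 of 4 mice. When mouse 13's resting zone library was left out, *Cd200* passed the filter, with a log2 fold change of 1.28 (adjusted p = 0.0902, not called). Without mouse 6's proliferative zone library it passed as well, at 1.19 (adjusted p = 0.235). Both values are from the first fit and so are not directly comparable with the 0.79 of the second. Its receptor gene *Cd200r1*, of myeloid cells, had 10 counts, all in the resting zone library of mouse 6.

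*Foxc1* (ENSMUSG00000050295, chromosome 13, 31806633 to 31812476, plus strand), the transcription factor gene of marrow stroma, had 20, 5, 42 and 2 counts in the resting zone, against 7, 21, 19 and 3 in the proliferative zone. The zones overlapped, and the resting zone was higher in 2 of 4 mice, the same mice 1 and 6 as for *Nt5e*. The levels were 42.5 ± 35.6 CPM and 23.1 ± 11.9 CPM, and the log2 fold change was 0.89 (SE 0.61, 95% interval -0.44 to 2.22, adjusted p = 0.309 in edgeR). Without the resting zone library of mouse 6 it was 0.30 (adjusted p = 0.762). *Ebf1*, a transcription factor gene of stroma and B lineage cells, had 17, 14, 5 and 8 counts in the resting zone, against 3, 4, 2 and 1 in the proliferative zone (log2 fold change 2.50, adjusted p = 0.0126 in the second edgeR fit, not called). *Ebf3* had at most 3 counts in any library.

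*Grem1* (ENSMUSG00000074934, chromosome 2, 113746164 to 113758646, minus strand), the secreted BMP antagonist, had 1, 4, 3 and 2 counts in the resting zone, against 0, 1, 0 and 0 in the proliferative zone. The zones did not overlap in CPM, with 7.88 ± 4.24 CPM against 0.428 ± 0.856 CPM. The ratio over the zones was 14.5-fold with an exact counting interval of 2.07 to 631, and the second fit gave a log2 fold change of 3.15 (SE 1.47, adjusted p = 0.164 in edgeR), higher in 4 of 4 mice. Without the proliferative zone library of mouse 2, which held the 1 count of that zone, it was 4.54 (adjusted p = 0.125), again set by the prior count with that zone at 0. Of the 12 genes of the BMP pathway list, 9 had a count, 4 passed the filter and 0 were called, beside 11.0% (resting zone higher) and 6.93% (proliferative zone higher) of all tested genes. *Bmpr1a*, a BMP receptor gene, had 4, 6, 19 and 2 counts in the resting zone, against 24, 40, 47 and 17 in the proliferative zone, with a log2 fold change of -1.61 that was not called (adjusted p = 0.0179 in edgeR) but was in the second fit (-1.82, adjusted p = 0.00725).

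**Figure D3:**
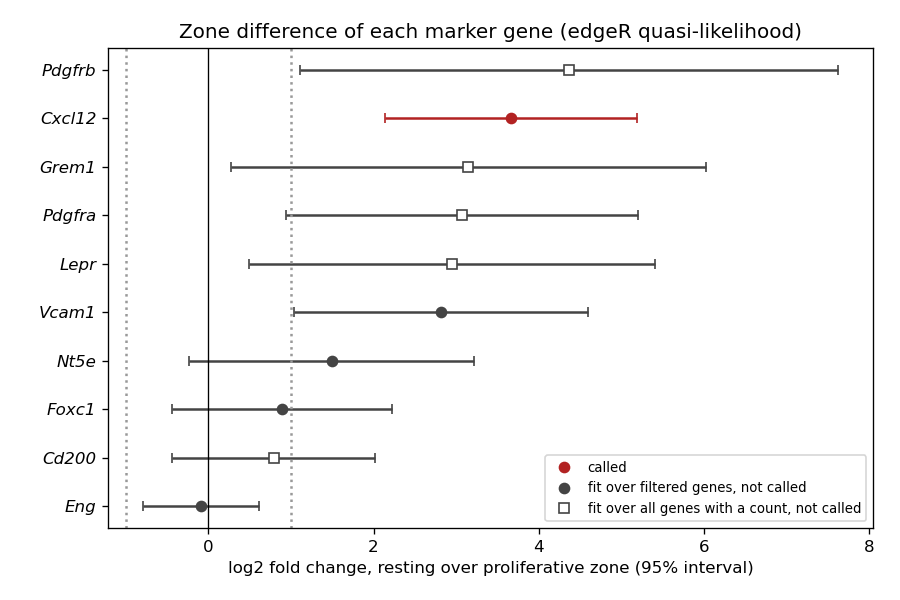
Log2 fold change of the resting over the proliferative zone with its 95% interval for each marker, from the edgeR quasi-likelihood fit over the genes that passed the filter (circles) or over all genes with a count (squares). Dotted lines mark a log2 fold change of 1 in either direction. Only *Cxcl12* was called, and the intervals of *Nt5e*, *Foxc1*, *Cd200* and *Eng* include 0.

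Across the 10 markers, 9 had a log2 fold change above 0, all but *Eng*, and 5 (*Cxcl12*, *Lepr*, *Pdgfra*, *Vcam1* and *Grem1*) were higher in the resting zone in 4 of 4 mice. A log2 fold change above 0 was found for 53.7% of the tested genes and, in the second fit, 54.5% of all genes with a count, and a higher level in the resting zone of every mouse for 24.6% and 12.9%. The 5 that passed the filter had a median log2 fold change of 1.49, beside 0.08 over all 3793 genes tested. That median is the value of *Nt5e*, and it fell to 0.30 when mouse 6's resting zone library was left out. In the second fit the median over all 10 was 2.75 (2.34 with *Pdgfrb* at its bound), beside 0.16 over all 17492 genes. Groups did not overlap for 4 of the 10 (*Cxcl12*, *Lepr*, *Pdgfra* and *Grem1*), all with the resting zone higher. The same held for 17.8% of the tested genes and 8.38% of all genes with a count.

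Levels per kilobase of exon compare the markers with each other, with the reserve that RNA amplified by in vitro transcription can cover transcripts unevenly. In the resting zone the order was *Eng* (21.4 ± 4.68 CPM per kilobase), *Cxcl12* (12.9 ± 3.95), *Cd200*, *Vcam1*, *Nt5e*, *Foxc1*, *Grem1*, *Lepr*, *Pdgfra* and *Pdgfrb* (1.19 ± 1.16). The ranges of every pair of neighbours in that order overlapped. In the proliferative zone *Eng* was the highest at 22.8 ± 6.7 CPM per kilobase, clear of *Cd200* at 5.15 ± 2.73, and all later neighbours overlapped down to *Pdgfrb* at 0. *Cxcl12*, the second in the resting zone, was the sixth in the proliferative zone at 0.88 ± 1.05 CPM per kilobase.

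The markers fell apart in how they varied over the 8 libraries. On the log2(CPM + 2) scale, *Cxcl12* correlated with *Pdgfra* (Pearson r = 0.928), *Lepr* (0.885), *Grem1* (0.884) and *Vcam1* (0.840), and *Nt5e* with *Foxc1* (0.866). *Eng* correlated with none of the other markers above 0.27. These are descriptions over libraries that share 4 mice and differ in zone and depth. Among all tested genes, those most like *Cxcl12* in this measure were *B2m* (0.991), *Zyx* (0.989) and *Chmp4b* (0.984). *B2m*, the light chain of MHC class I, had 328, 260, 263 and 157 counts in the resting zone, against 77, 70, 17 and 5 in the proliferative zone. Those most like *Vcam1* were *Gm15135*, *Fbxw2* and *Pigb* (0.953 to 0.959), those most like *Nt5e* were *Mbtps1*, *Atp5g1* and *Crb2* (0.924 to 0.952), and those most like *Foxc1* were *Atp5g1*, *Arid2* and *Hspa4* (0.908 to 0.935). For *Eng* the values were lower, at 0.844 to 0.872 with *Iqcg*, *Cnot6* and *Tmem255a*.

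Over the 96 partner, pathway and related genes listed for these markers, 89 had a count and 28 passed the filter, of which 8 were called with the resting zone higher and 1 with the proliferative zone higher, beside 11.0% and 6.93% of all tested genes. In the second fit these 28 gave 9 and 4 calls. Their median log2 fold change was 0.87, beside 0.08 over all tested genes. A further 61 were read from the second fit, of which 5 were called with the resting zone higher and 0 the other way, beside 4.74% and 2.68% of all genes in that fit. Among 20 other marrow stroma genes, *Igfbp5*, an IGF binding protein gene, had 31, 64, 37 and 23 counts in the resting zone, against 4, 0, 0 and 2 in the proliferative zone (log2 fold change 5.10, adjusted p = 0.000432 in edgeR). The 1 gene called higher in the proliferative zone in the first fit was in that list too. *Chrdl1*, a BMP antagonist gene, had 3, 3, 18 and 2 counts in the resting zone, against 59, 78, 66 and 22 in the proliferative zone (log2 fold change -2.65, adjusted p = 0.00109).

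Among the 17 marrow stroma genes under the filter, the second fit called 3 with the resting zone higher, beside 4.74% of all genes in that fit. *Adipoq*, which adipocytes and their marrow precursors express, had 4, 27, 6 and 6 counts in the resting zone, against 2, 1, 0 and 0 in the proliferative zone (log2 fold change 4.03, adjusted p = 0.000256 in the second edgeR fit). Its highest library, that of mouse 2, was also the highest for *Vcam1*, *Cxcl12*, *Itga4* and *Igfbp5*. Other stroma genes were highest elsewhere: *Lepr*, *Pdgfra*, *Pdgfrb*, *Csf1*, *Kitl* and *Ebf1* in mouse 1 and *Cdh11* in mouse 13. The other genes called were *Cdh11*, a mesenchymal cadherin gene (3.62, adjusted p = 1.41e-05), and *Csf1*, which encodes a macrophage growth factor (3.25, adjusted p = 0.00637). *Kitl*, the stem cell factor gene that stroma expresses beside *Cxcl12*, had 7, 1, 1 and 2 counts in the resting zone, against 1, 0, 0 and 0 in the proliferative zone and was not called (adjusted p = 0.135).

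Of 16 other skeletal stem cell genes, 4 passed the filter and 3 were called higher in the resting zone, where 11.0% of all tested genes were. *Gli1*, a hedgehog target gene that marks stem cells beside the growth plate, had 79, 112, 109 and 54 counts in the resting zone, against 28, 18, 6 and 2 in the proliferative zone (log2 fold change 3.31, adjusted p = 0.000425 in edgeR). *Itgav*, the alpha V integrin gene used to sort skeletal stem cells, was called with a log2 fold change of 2.23 (adjusted p = 0.00112). *Ctsk*, used as a marker of periosteal stem cells and a main protease of osteoclasts, was called with a log2 fold change of 3.85 (adjusted p = 0.0021). Osteoclast markers, among which *Ctsk* is counted, summed to between 1496 and 4549 CPM in the resting zone and to between 14.4 and 445 CPM in the proliferative zone. *Cspg4*, the remaining gene of this list that passed, lay the other way and was not called (log2 fold change -0.95, adjusted p = 0.101 in edgeR). Its resting zone libraries had 14, 12, 56 and 6 counts, against 52, 60, 68 and 33 for the proliferative zone, which was higher in 3 of 4 mice. *Ly6a*, which encodes Sca-1, was called in the second fit (4.03, adjusted p = 0.00216). *Foxa2*, with 1 resting zone count against 7 proliferative zone counts, was not called in that fit. Several markers that sorts select for or against were too low to judge: *Thy1* had 1 count in the 8 libraries, *Enpep* (6C3) 8 counts and *Axin2*, whose promoter drives the Cre, 1 count, in the proliferative zone.

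**Figure D4:**
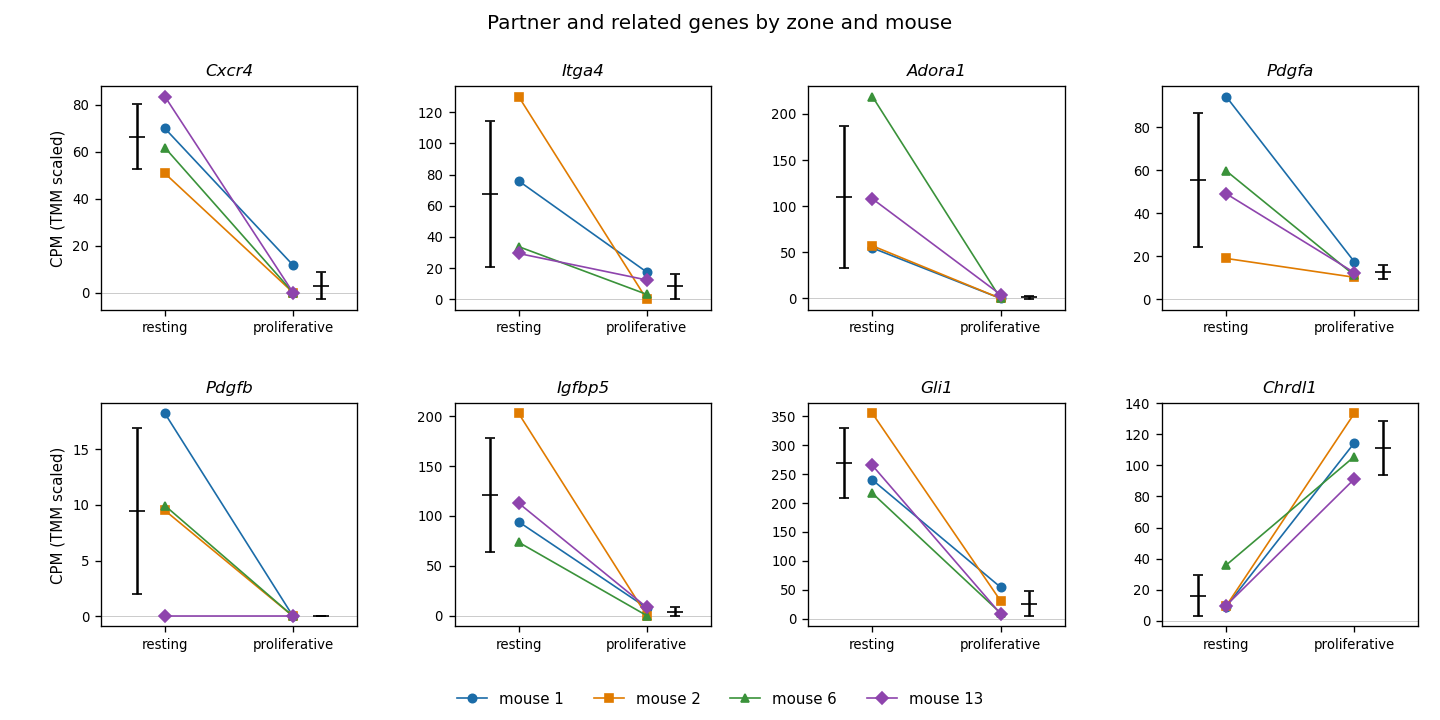
Levels in CPM (TMM scaled, linear axes of different range) of 8 partner and related genes by zone, with the 2 libraries of a mouse joined and mean ± SD (n = 4) beside them. *Chrdl1* alone lies higher in the proliferative zone, and *Adora1* is highest in the resting zone library of mouse 6.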

How the data were processed

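Sample labels gave the zone and mouse of 8 libraries from 4 mice. The authors trimmed reads, aligned them to GRCm38 with HISAT2 2.1.0 and counted them per gene with HTSeq 0.11.2, and deposited these raw counts. Another deposited table has gene names, the fold changes and p-values of the authors' own test (not used here) and a signal per library (TMM-scaled CPM made by the authors), used only to check that both files hold the same libraries.

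All values were computed from the counts with edgeR 4.0.16 in R 4.3.3: TMM factors, edgeR's filter by zone (minimum count 10, minimum total 15), a model with zone only and the quasi-likelihood test, with Benjamini-Hochberg adjustment over all genes tested. Genes under the filter were read from a second fit over all genes with a count. The common biological coefficient of variation was 38%. Alternatives were the likelihood ratio test that the study used, DESeq2 1.42.0, RLE factors, other filters, a threshold of 0.05, the mouse as a block and each library left out. Permutation and counting intervals used scipy 1.17.1 and plots matplotlib 3.10.9. Only the first fit was tested on simulated data, with the same dispersion for all genes and no difference between mice. The second fit and the alternatives were not. Counting intervals cover counting error only.

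By the labels a number stands for 1 animal, so equal numbers pair libraries. Deviations from the zone means correlated over genes within a pair at r = 0.176 (mouse 1), 0.0118 (mouse 2), 0.14 (mouse 6) and 0.0595 (mouse 13), and with other mice at means between -0.0572 and -0.00511. No pair of the 8 libraries agreed within sampling noise.

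The 10 genes were listed by name, and all are described. Sums without single genes, the exchange within mice and the leave-outs of the median and of the *Pdgfrb* bound were added after seeing the data. Of the other lists, up to 3 called genes with the lowest adjusted p were named, together with ligands and receptors of the 10, and the 3 genes most like each tested one. Other genes named were chosen after their values were seen. Members and lists were chosen with earlier results of these data known.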

Additional observations from a re-analysis of the deposited data

Results flagged for a closer look

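In the proliferative zone, 1 library stood apart from the other 3 for 4 markers, by Dixon's criterion for 4 samples. These were *Lepr* in mouse 1 (3.88 CPM, from 2 counts), *Pdgfra* in mouse 2 (5.14 CPM, 3 counts), *Vcam1* in mouse 1 (29.1 CPM, 15 counts) and *Grem1* in mouse 2 (1.71 CPM, 1 count). For *Lepr*, *Pdgfra* and *Grem1* the other 3 libraries were at 0, so that any count sets a library apart. For *Vcam1* the gap to the next library was 0.872 of the range. Both mice are those whose proliferative zone libraries also held *Cxcl12* and erythroid counts. Both are the males by the labels, so sex cannot be told apart from these differences between mice. In all, 19 groups were examined, and chance flags about 1 in 20 groups of continuous values, a rate that does not apply where 3 libraries are at 0.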

How the results depend on the processing

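Of 139 values of the markers' log2 fold changes under alternatives, 130 kept their direction and their side of the threshold, 7 passed it where the reported value did not (*Vcam1* and *Pdgfra*), 0 fell below it and 2 changed sign (*Eng*, 0.017 and 0.037 when the resting or the proliferative zone library of mouse 1 was left out, with a range of -0.34 to 0.037 over all libraries left out). Part of this tally was fixed in advance. The threshold of 0.05 repeats the reported fold changes. The filter of at least 1 count repeats the fit reported for *Lepr*, *Pdgfra*, *Pdgfrb*, *Cd200* and *Grem1*. Most of the markers were also not called to begin with. The replicate block, with the mouse as a term, changed the call of none of the 10 markers, of which *Cxcl12* alone was called. It gave *Cxcl12* a log2 fold change of 3.95 (adjusted p = 0.0014 in edgeR) and called 385 resting-high and 230 proliferative-high genes, against 419 and 263. With the block the adjusted p in edgeR rose for *Pdgfrb* (0.369), *Grem1* (0.386), *Cd200* (0.756), *Lepr* (0.176), *Foxc1* (0.437), *Eng* (0.906) and *Nt5e* (0.416, log2 fold change 0.99). It fell for *Vcam1* (0.0108) and *Cxcl12* and stayed at 0.0433 for *Pdgfra*. Genes called higher in the resting zone numbered 686 with DESeq2, 829 with a filter of at least 1 count, 125 with at least 10 counts in every library and 635 at an adjusted p below 0.05. Those higher in the proliferative zone numbered 468, 137 and 427 under the last 3 of these settings. With 1 library left out these numbers ran from 255 (without the proliferative zone library of mouse 2) to 472 and from 183 to 349. The number of markers called higher in the resting zone was 2 with the likelihood ratio test and with at least 1 count (*Cxcl12* and *Vcam1*), 3 at an adjusted p below 0.05 (*Pdgfra* as well) and 0 with at least 10 counts in every library, a filter that *Eng* alone passed. It was 1 to 2 with 1 library left out: 2 when mouse 1's proliferative or mouse 6's resting zone library was dropped (*Vcam1*), and 2 when mouse 2's proliferative zone library was dropped (*Pdgfra*, then at 0 in that zone). Without mouse 6's library *Vcam1* failed the filter and was read from the second fit, which called it with all libraries too. For the others the cause was not tested. DESeq2 gave no adjusted p for *Pdgfrb* and *Grem1*. After seeing the data, sums of marker lists without single genes, a test within mice and medians with a library left out were added. The median log2 fold change of the 5 markers tested lay between 0.30 (mouse 6's resting zone library left out) and 1.81 with 1 library left out. Of 20 mean levels recomputed without TMM factors, 0 moved by more than 1 SD. Of the 3 genes most like each tested marker, 2 to 3 were shared under pseudocounts of 1 or 8. Depth limits *Lepr*, *Pdgfra*, *Pdgfrb* and *Grem1* most, each with at most 3 counts in every proliferative zone library.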
